A study of Mus musculus with 6 samples.

Results

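The 7 genes described here make, import, charge and discharge creatine: Gamt, Gatm, Slc6a8, Ckb, Ckmt1, Ckmt2 and Alpl. They were matched by gene symbol, and all 7 had a row among the 23997 genes of the table. The set was chosen by function, but from earlier results of the same libraries in which Gamt stood higher in the knockout, so the difference between genotypes is given for these genes as a description and is not tested. The RNA came from the inguinal white fat (iWAT) of mice, a depot under the skin, in 3 Atf4WT libraries and 3 Atf4AKO libraries. All mice carried the floxed Atf4 gene, and the Atf4AKO mice also carried Cre recombinase driven by the adiponectin (Adipoq) promoter, which acts in adipocytes. Both genotypes were housed at 22 °C and then kept at 5 °C for 12 h, so there is no warm group. The sources used here do not give age, sex or the number of animals behind a library, so the spread is that between libraries and may be technical. Cre went with the group in every library, and its own effect cannot be told apart from that of the lost gene.

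Creatine is made in 2 steps. GATM, a mitochondrial enzyme, joins the amidino group of arginine to glycine, and GAMT methylates the product to creatine. Cells without this route take creatine up through the transporter SLC6A8, and creatine kinases move phosphate between ATP and creatine, with cytosolic forms (CKB in many tissues, CKM in muscle) and mitochondrial forms (CKMT1 in many tissues, CKMT2 in striated muscle and brown fat). In mouse thermogenic fat a futile creatine cycle has been described, in which phosphocreatine is made by CKB and split by the alkaline phosphatase ALPL, so that ATP is spent as heat without UCP1.

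The upstream sequences of 3 genes are shown because these genes behaved in 3 ways: Gamt was higher in every Atf4AKO library, Ckb was almost level, and Ckmt2 followed skeletal muscle genes. Each sequence is the 250 bases before the annotated start on the gene's own strand, which is the minus strand in all 3, from the promoter table of RefSeq (GRCm38.p6). Gamt lies at chr10:80261013-80261262, Ckb at chr12:111672339-111672588 and Ckmt2 at chr13:91876886-91877135. Capitals mark the GC box (GGGCGG), the CCAAT box (CCAAT), the TATA box (TATAAA) and the MEF2 element (CTA, any 4 bases, TAG) on either strand.
Gamt: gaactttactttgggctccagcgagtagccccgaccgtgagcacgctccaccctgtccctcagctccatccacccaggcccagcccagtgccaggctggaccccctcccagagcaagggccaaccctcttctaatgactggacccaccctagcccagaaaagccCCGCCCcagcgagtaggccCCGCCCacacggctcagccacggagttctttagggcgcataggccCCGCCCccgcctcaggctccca
Ckb: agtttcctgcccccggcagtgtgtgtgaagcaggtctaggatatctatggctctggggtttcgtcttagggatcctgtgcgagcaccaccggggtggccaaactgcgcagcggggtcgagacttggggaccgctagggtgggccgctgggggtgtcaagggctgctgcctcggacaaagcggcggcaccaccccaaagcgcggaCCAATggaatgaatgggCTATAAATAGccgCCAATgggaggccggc
Ckmt2: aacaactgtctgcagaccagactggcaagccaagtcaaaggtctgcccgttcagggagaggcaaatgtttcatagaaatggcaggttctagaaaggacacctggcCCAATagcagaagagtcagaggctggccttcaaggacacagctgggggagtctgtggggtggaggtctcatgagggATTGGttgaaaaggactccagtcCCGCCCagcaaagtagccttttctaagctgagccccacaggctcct

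The Gamt sequence held 3 GC boxes, all on the opposite strand, which begin 86, 67 and 22 bases before the start, and no CCAAT or TATA box. GC boxes were present in 32.7% of 32851 windows of this length over all genes. Ckb held 2 CCAAT boxes around the letters CTATAAATAG, which match both the TATA box (12.4% of windows) and the MEF2 element (3.20% of windows) because these overlap. Ckmt2 held 1 GC box and a CCAAT box on each strand, and CCAAT was present in 33.8% of windows. The C/EBP-ATF element (TGATGNAAT), to which ATF4 binds with a C/EBP partner, was not in any of the 8 windows of the 6 genes that had one, and it was in 0.816% of all windows. The cAMP response element (TGACGTCA, 1.55% of windows) and the oestrogen-related receptor element (TNAAGGTCA, 1.14%) were not in them either. Slc6a8 had no entry. These matches are letters in a short window and not measured sites.

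The values are FPKM, fragment counts scaled to transcript length and to the mapped total of the library, so levels can be compared between genes. The FPKM sums ran from 524158 to 717778 and between 15939 and 16504 genes were above 0 in a library, while read depth is unknown. Atf4 itself was 258, 323 and 317 FPKM in the controls and 152, 140 and 114 FPKM in the knockouts, lower in every knockout library (log2 change -1.14, SE 0.16, limma adjusted p = 0.490). The pad also holds cells in which this Cre does not act. In RNA of a whole pad, fewer cells of a type and less RNA per cell cannot be told apart.

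The libraries differed in the tissue they held. The 20 skeletal muscle markers summed to 964 FPKM in Atf4WT 2, 3184 in Atf4AKO 1 and 8909 in Atf4AKO 2, against 38.0 in Atf4WT 1, 31.3 in Atf4WT 3 and 33.5 in Atf4AKO 3. The 18 mammary and skin epithelial markers summed to 1226 FPKM in Atf4WT 1 and to between 6.94 and 244 in the others. The adipocyte markers were all above 0 in every library, and their sums were 58548 to 81344 FPKM in Atf4WT and 68717 to 105366 in Atf4AKO. Of 12 marker lists, Atf4AKO 3 lay within the range of the Atf4WT libraries in 10, and Atf4AKO 1 and 2 in 5 each.

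Gamt, the methyltransferase of the last step of synthesis, was higher in Atf4AKO. Its level was 1.89, 2.72 and 2.17 FPKM in the 3 Atf4WT libraries and 7.13, 9.44 and 5.58 FPKM in the 3 Atf4AKO libraries. Every knockout library was above every control library, and the knockout libraries were more widely spread than the controls. The means were 2.26 ± 0.423 and 7.38 ± 1.95 FPKM (SD, n = 3 each), a ratio of 3.27. The log2 change, the difference of group means of log2(FPKM + 1), was 1.35 (SE 0.20).

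Gamt was the 1 member of 7 whose groups did not overlap. Of the 12818 genes that averaged 0.5 FPKM or more, the groups did not overlap in 16.5%, with the knockout libraries higher in 8.21% and lower in 8.34%. The limma fit over these genes called 2 of them at an adjusted p of 0.05 (0.0156%), the calcium channel gene Cacna1i and the zinc finger gene Zfp949, both higher in Atf4AKO. Cacna1i lies 29697 bases from the edited gene Atf4, on chromosome 15. Rps19bp1, 3074 bases from Atf4, was 19.8 ± 1.99 and 7.80 ± 0.655 FPKM (SD, n = 3 each; log2 change -1.24, SE 0.12, limma adjusted p = 0.0903). Whether the edit itself altered these neighbours was not tested. The count of genes called higher was 0 without Atf4AKO 1, 1 without Atf4WT 1 or Atf4WT 2, and 3 without Atf4WT 3, and 2 genes were called lower without Atf4WT 2. No member was among the 2 called with all libraries, and 1 of the 6 members in that fit had an unadjusted p under 0.05, as had 1276 of the 12818 genes. Since Gamt's difference was known when the set was chosen, these counts support nothing about it.

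The Gamt difference was of a like size without any 1 library and without the muscle-rich ones. Its log2 change lay between 1.17 and 1.51 when each library was left out in turn. In the 3 libraries with little muscle, Atf4AKO 3 at 5.58 FPKM stood above Atf4WT 1 at 1.89 and Atf4WT 3 at 2.17, a log2 change of 1.12. With the level of skeletal muscle markers as a covariate the log2 change was 1.13, and with that of beige adipocyte markers 1.28. Within each group Gamt was highest in the library with the most muscle RNA: 2.72 FPKM in Atf4WT 2, and in Atf4AKO 5.58 FPKM where the muscle sum was 33.5, 7.13 where it was 3184 and 9.44 where it was 8909.

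Markers of other cells also differed beside Gamt. All 12 macrophage markers and all 12 fibroblast and preadipocyte markers in the fit had a positive log2 change. The same held for all 5 erythroid and all 15 skeletal muscle markers in the fit. By contrast 17 of 18 mammary and skin epithelial and 10 of 12 smooth muscle and pericyte markers had a negative log2 change. Over all genes in the fit 50.6% of log2 changes were positive. Macrophage sums were 294 to 689 FPKM in Atf4WT and 590 to 3197 in Atf4AKO, and fibroblast sums 1367 to 2061 and 1960 to 3462 FPKM, with 0 markers of either list at 0 in all libraries. The macrophage sum of 590 FPKM and the fibroblast sum of 1960 FPKM in Atf4AKO 3 lay in the upper part of the Atf4WT range. Gamt was 5.58 FPKM in that library. This is 1 library, and the part of these cells in the difference was not tested.

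The genes beside Gamt were examined after its values were seen, picked by position only. Gamt lies on the minus strand at chr10:80258151-80261012 (GRCm38, GENCODE M21), with no overlapping gene in the annotation. Dazap1, an RNA-binding protein gene, starts 474 bases away on the plus strand. It was 46.3, 54.1 and 56.4 FPKM in the Atf4WT libraries against 46.2, 58.0 and 54.6 FPKM in the Atf4AKO libraries, overlapping ranges (log2 change 0.02, SE 0.14, limma adjusted p = 0.965). On the other side Ndufs7, a complex I subunit gene 1357 bases away, was 175 ± 65.2 and 159 ± 19.9 FPKM (SD, n = 3 each; log2 change -0.08, SE 0.30, limma adjusted p = 0.921). The next gene, Mum1, was lower in the knockout in value, 5.12 ± 0.938 and 3.21 ± 0.718 FPKM (limma adjusted p = 0.50).

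Gatm, the amidinotransferase of the first step, showed no such separation. It was 3.07, 5.71 and 7.89 FPKM in the controls and 6.18, 6.88 and 6.26 FPKM in the knockouts. The control libraries spanned the knockout libraries on both sides, and the 3 knockout libraries lay close together. The means were 5.56 ± 2.41 and 6.44 ± 0.379 FPKM (SD, n = 3 each), with a log2 change of 0.25 (SE 0.28). Without Atf4WT 1, the low library, it was -0.05, so its direction rests on that library.

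The balance of the 2 synthesis genes was not the same in the groups. Gatm stood above Gamt in all 3 Atf4WT libraries, by 1.63, 2.10 and 3.64 times. In Atf4AKO the ratio of Gatm to Gamt was 0.867, 0.728 and 1.12, so Gamt was the higher in Atf4AKO 1 and 2 and slightly the lower in Atf4AKO 3. The lowest control ratio was above the highest knockout ratio. Since the ratio holds Gamt, it is no separate evidence.

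**Figure D1:**
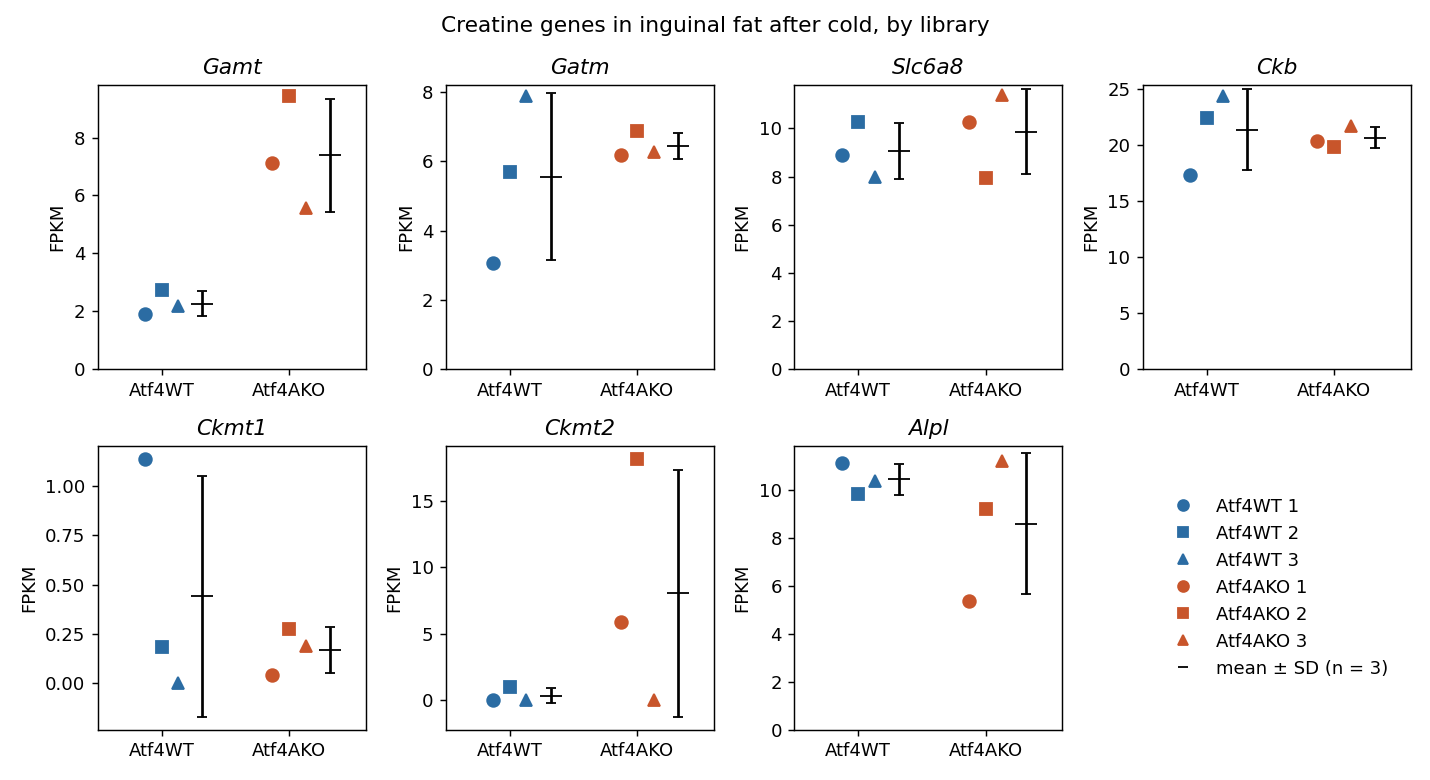
FPKM of the 7 creatine genes in each of 6 libraries (points, 1 shape per replicate number), with the mean ± SD of each group of 3 beside them; FPKM axes are linear and differ between panels. Gamt is the panel in which the groups do not overlap, 1.89 to 2.72 FPKM in Atf4WT and 5.58 to 9.44 FPKM in Atf4AKO.

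Slc6a8, the creatine transporter of the plasma membrane, was 8.90, 10.3 and 7.99 FPKM in the Atf4WT libraries against 10.3, 7.92 and 11.4 FPKM in the Atf4AKO libraries. The groups overlapped over most of their range, and the highest library was only 1.44 times the lowest. The log2 change was 0.10 (SE 0.16), and it was -0.03 after the libraries were rescaled to equal FPKM sums, a step that shifted the median of all genes from 0.00 to -0.12. The transporter thus stood above Gamt in 5 libraries of 6, the exception being Atf4AKO 2, where Gamt was at 9.44 FPKM and Slc6a8 at 7.92 FPKM.

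Ckb, the cytosolic kinase of the futile cycle, was the most abundant member in every library. It was 17.3, 22.3 and 24.3 FPKM in the controls and 20.4, 19.8 and 21.6 FPKM in the knockouts. The knockout libraries lay inside the range of the controls. The means were 21.3 ± 3.62 and 20.6 ± 0.935 FPKM (SD, n = 3 each), and the log2 change of -0.03 (SE 0.14) changed sign in 3 of 14 alternatives. It was -0.18 with equal sums, near the -0.12 of all genes.

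The level of Ckb changed little where Ucp1, the uncoupling protein of thermogenic fat, changed greatly. Ucp1 was 15.5, 1370 and 211 FPKM in the Atf4WT libraries against 456, 497 and 415 FPKM in the Atf4AKO libraries, a range of 88.6 times over the 6 libraries. Ckb ranged by 1.41 times, although its lowest value, 17.3 FPKM, was in Atf4WT 1, where Ucp1 was also lowest. Its highest value of 24.3 FPKM was in Atf4WT 3, in which Ucp1 was the second lowest.

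Ckmt2, the mitochondrial kinase of striated muscle, was above 0 in the 3 libraries with high muscle markers, of both genotypes. It was listed at 0 in Atf4WT 1, Atf4WT 3 and Atf4AKO 3, and was 0.994 FPKM in Atf4WT 2, 5.91 FPKM in Atf4AKO 1 and 18.2 FPKM in Atf4AKO 2. The same 3 libraries held the muscle creatine kinase Ckm, at 99.5, 357 and 1030 FPKM, while it was 1.34, 0.310 and 0.0534 FPKM in the 3 libraries where Ckmt2 was listed at 0. There were 0.999, 1.66 and 1.76 FPKM of Ckmt2 for each 100 FPKM of Ckm in Atf4WT 2, Atf4AKO 1 and Atf4AKO 2.

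The log2 change of Ckmt2, 2.02 (SE 1.02), is carried by Atf4AKO 1 and 2. It was 0.72 with the muscle level as a covariate, and Ckmt2 was listed at 0 on both sides when the 3 muscle-rich libraries were left out. Contractile genes were high in the same libraries. Acta1, the actin of skeletal muscle, was 3.82, 170 and 2.36 FPKM in the controls and 605, 1467 and 2.84 FPKM in the knockouts, and Tnnt3, a fast troponin, was 2.90, 155 and 0.745 FPKM and 536, 1634 and 1.29 FPKM. The 3 libraries with Ckmt2 above 0 were also the 3 highest in Ucp1, but in a different order. Atf4WT 2, the highest in Ucp1 at 1370 FPKM, had 0.994 FPKM of Ckmt2, whereas Atf4AKO 2 and 1, next in Ucp1 at 497 and 456 FPKM, had 18.2 and 5.91 FPKM. Ckmt2 was listed at 0 in Atf4AKO 3, Atf4WT 3 and Atf4WT 1, where Ucp1 was 415, 211 and 15.5 FPKM. The parts of muscle and of beige adipocytes in the level of Ckmt2 were not tested. Ckmt2 and Ckm each overlap an annotated antisense transcript, and no source used here says if counting used the strand, so such pairs may not be separated.

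**Figure D2:**
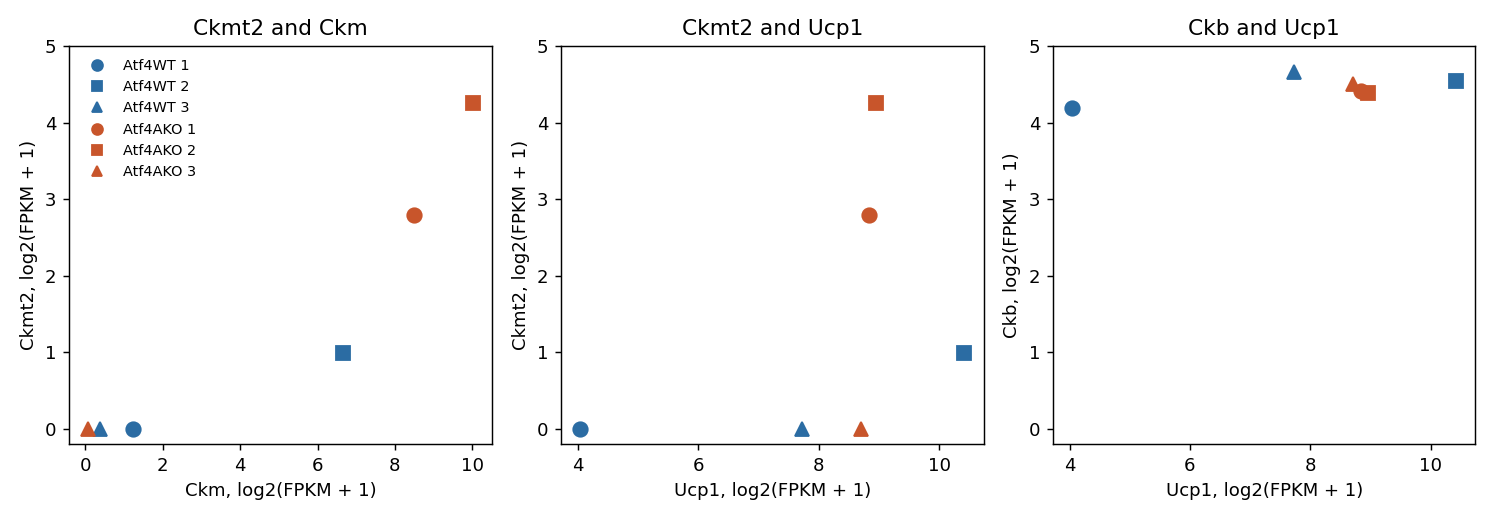
Levels in the 6 libraries as log2(FPKM + 1): Ckmt2 against the muscle kinase Ckm (left), Ckmt2 against Ucp1 (middle) and Ckb against Ucp1 (right); blue points are Atf4WT and orange points Atf4AKO. The 3 libraries with Ckmt2 above 0 are those with Ckm at 99.5 FPKM or more, and are also the 3 highest in Ucp1. Ckb stays between 17.3 and 24.3 FPKM over the whole range of Ucp1.

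Ckmt1, the mitochondrial kinase of epithelia, brain and other tissues, was near the bottom of the table. It was 1.14, 0.184 and 0 FPKM in the Atf4WT libraries against 0.0431, 0.275 and 0.187 FPKM in the Atf4AKO libraries. Atf4WT 1 stood apart from the other 5 libraries, and the groups overlapped. With a mean of 0.305 FPKM over the 6 libraries Ckmt1 was under the minimum of 0.5 FPKM and was the 1 member left out of the fit. Its log2 change of -0.23 became 0.10 without Atf4WT 1.

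Ckmt1 was highest in the library with the most epithelial RNA. The epithelial markers, all 18 of which were above 0 there, summed to 1226 FPKM in Atf4WT 1. In Atf4WT 2 and Atf4AKO 3, with sums of 244 and 230 FPKM, Ckmt1 was 0.184 and 0.187 FPKM. In Atf4WT 3, Atf4AKO 1 and Atf4AKO 2, with sums of 10.1, 6.94 and 17.9 FPKM, it was 0, 0.0431 and 0.275 FPKM, so the low libraries did not keep that order. The keratin gene Krt19, the most abundant epithelial marker, was 272 FPKM in Atf4WT 1 and 43.3 FPKM in Atf4WT 2. The part of epithelium in the level of Ckmt1 was not tested. The 3′ end of Ckmt1 overlaps Strc on the other strand, which was at most 0.0115 FPKM in any library.

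The makeup of creatine kinase RNA differed mainly between libraries. The 4 kinase genes, Ckm included, summed to 19.8, 123 and 24.6 FPKM in Atf4WT and to 383, 1068 and 21.9 FPKM in Atf4AKO. In the 3 libraries with little muscle RNA, Ckb made up 87.5%, 98.7% and 98.9% of that sum (Atf4WT 1, Atf4WT 3 and Atf4AKO 3). In Atf4WT 2, Atf4AKO 1 and Atf4AKO 2 Ckm made up 80.9%, 93.1% and 96.4%. The mitochondrial kinases together were a small part throughout, with Ckmt2 at no more than 1.70% and Ckmt1 at no more than 5.76%, the latter in Atf4WT 1.

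**Figure D3:**
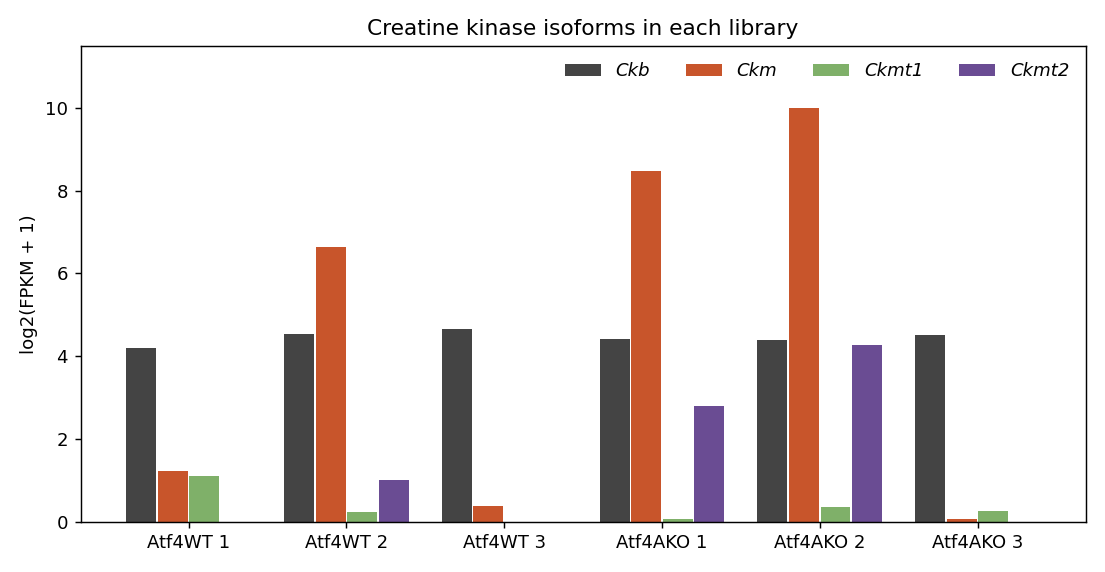
Levels of the 4 creatine kinase genes in each library as bars of log2(FPKM + 1), 1 library per cluster of bars and no error bar because each bar is 1 value. Ckb stands at a like height in all 6 libraries, whereas Ckm ranges from 0.0534 to 1030 FPKM and Ckmt2 is above 0 in 3 libraries.

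Alpl, the tissue-nonspecific alkaline phosphatase, was 11.2, 9.86 and 10.4 FPKM in the controls and 5.40, 9.21 and 11.2 FPKM in the knockouts. The controls lay close together, and 2 knockout libraries were below all of them while the other was above. The means were 10.5 ± 0.654 and 8.61 ± 2.95 FPKM (SD, n = 3 each), with a log2 change of -0.30 (SE 0.24). It was -0.04 without Atf4AKO 1, the low library, and 0.05 in the 3 libraries with little muscle. Atf4AKO 1 also had the highest macrophage sum, 3197 FPKM. Its sum of neutrophil markers was the highest as well, 283 FPKM against 31.1 to 148 FPKM in the others. Of the 148 FPKM, found in Atf4WT 1, the marker Ltf alone made up 116 FPKM, and it was 0.357 FPKM in Atf4AKO 1. The part of macrophages and neutrophils in the level of Alpl was not tested.

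In the order of levels, Ckb was first in every library. In Atf4WT it was followed by Alpl and Slc6a8, whose ranges overlapped, then by Gatm and Gamt, each clear of the next, and last by Ckmt1 and Ckmt2, which overlapped. In Atf4AKO only Ckb was clear of the next gene, and the ranges of the other neighbours in the order overlapped. Over all 7 genes 4 log2 changes were positive and 3 negative, with a median of 0.10 against 0.00 over the 12818 genes in the fit.

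**Figure D4:**
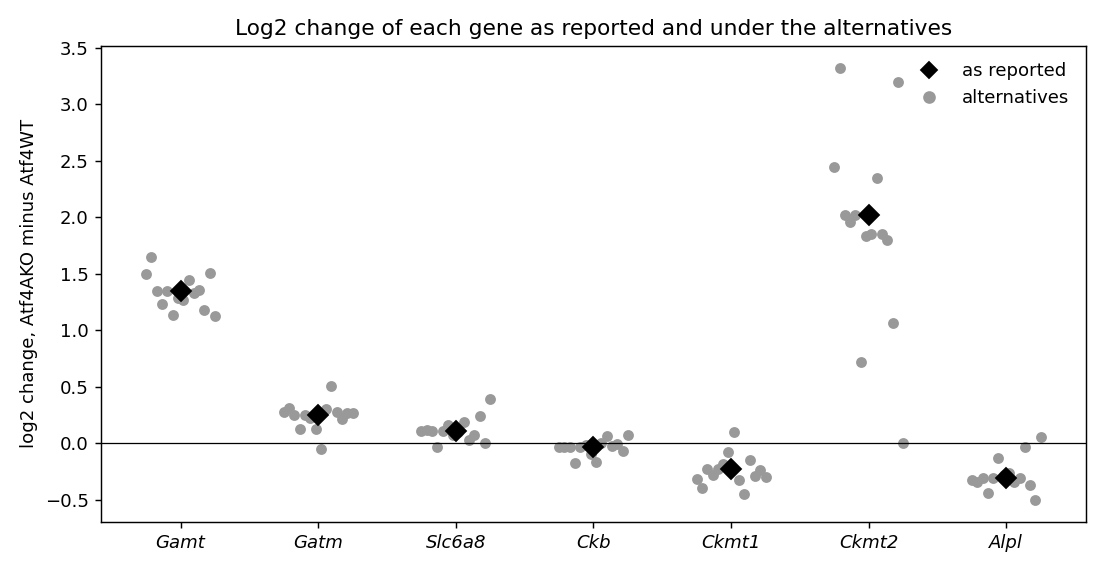
Log2 change of each gene, Atf4AKO minus Atf4WT on the log2(FPKM + 1) scale (other pseudocounts in 2 of the alternatives), as reported (diamonds) and under 14 alternatives (grey points). Gamt stays between 1.12 and 1.65, Ckmt2 runs from 0 to 3.32, and the other 5 genes lie near 0, each with at least 1 alternative on the other side of it.

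Genes with the most similar pattern were found by Pearson's r of log2(FPKM + 1) over the 6 libraries, which share genotype and tissue makeup, so r is a description. With 6 points high values are common: 352 of 12812 genes had r of at least 0.9 with Gamt, 562 with Ckmt2 and 81 with Ckb, but 5 with Slc6a8. Gamt was most like Fyn, a Src-family kinase gene (r = 0.997), at 12.7, 13.9 and 13.7 FPKM in the Atf4WT libraries against 19.2, 21.4 and 17.7 FPKM in the Atf4AKO libraries, followed by Thrap3, a splicing and transcription cofactor (r = 0.993), and the kinase gene Dyrk1a (r = 0.992). Ckmt2 was most like Hrc, a calcium-binding protein of the sarcoplasmic reticulum, Itgb1bp2, a muscle integrin-binding protein, and Hfe2, the hemojuvelin gene (r = 1.00, 0.999 and 0.999).

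For the other members the nearest genes were less alike in kind. Ckb was most like the mitochondrial topoisomerase gene Top1mt (r = 0.997), the transcription factor gene Fli1 (0.991) and Helz2 (0.987). Gatm was most like H2-Q10, a class I histocompatibility gene with near-identical relatives (r = 0.993), Ccdc59 (0.985) and Zfp488 (0.985), all lowest in Atf4WT 1. Genes most like Alpl included Hmgn1 and Ccdc102a (r = 0.994 and 0.984), both lowest in Atf4AKO 1. Those most like Slc6a8 included Armc5 and Lrrc42 (r = 0.980 and 0.926). Among the members themselves Ckb and Gatm had r = 0.83, Ckmt2 and Gamt 0.82, and Slc6a8 and Gatm -0.12.

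Around the creatine genes, 7 lists of related genes were followed in the same limma fit, 78 genes of which 76 had a row and 56 could be tested. None was called in either direction (0 of 56, the smallest adjusted p being 0.50), beside 0.0156% of all genes. At an unadjusted p under 0.05 there were 3 of 56 (5.36%), against 9.95% of all genes tested. The groups did not overlap in 5 of 56 (8.93%), against 16.5% of all genes. Amd1 is 1 of these 5, although it was at 0.0231 to 0.0232 FPKM in every library but Atf4WT 2, which is no real separation. The median log2 change of the 56 was 0.04. Over all genes tested, 50.6% of the log2 changes were positive.

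Genes that supply arginine and glycine, the substrates of Gatm, had 2 positive and 7 negative log2 changes among 9 tested, with a median of -0.12. The arginase genes Arg1 and Arg2 varied widely between libraries. Arg2, which splits arginine in mitochondria, was 23.0, 3.99 and 0.207 FPKM in the controls and 2.46, 0.209 and 4.53 FPKM in the knockouts. Arg1 was 49.7, 9.21 and 0.542 FPKM and 38.9, 0.249 and 6.81 FPKM. Slc7a2, a transporter of cationic amino acids, was 5.16 ± 3.79 and 3.48 ± 1.26 FPKM (SD, n = 3 each). Their ranges overlapped between the groups.

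Genes of the methyl donor cycle, which gives GAMT its S-adenosylmethionine, had 4 positive and 8 negative changes among 12, with a median of -0.10. Mat2a, which makes S-adenosylmethionine, was 106, 118 and 118 FPKM in the Atf4WT libraries against 130, 185 and 118 FPKM in the Atf4AKO libraries (log2 change 0.31, SE 0.19, limma adjusted p = 0.542). Gnmt, a glycine methyltransferase that uses the same donor, was 1.86 ± 0.848 and 1.07 ± 0.338 FPKM (SD, n = 3 each; limma adjusted p = 0.547). Amd1 was at 8.39 FPKM in Atf4WT 2 and between 0.0231 and 0.0232 FPKM in the other 5 libraries, and has a near-identical copy, so its value is uncertain.

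Mitochondrial partners of creatine kinase, the carriers and pores that pass ATP and phosphate, had 9 positive and 1 negative change among 10, with a median of 0.11. Atf4WT 1 was the lowest library for all of these 10 but Slc25a10, so the signs lean on that library. Slc25a4, the adenine nucleotide carrier of heart and muscle, was 130, 229 and 165 FPKM in the controls and 225, 346 and 186 FPKM in the knockouts, overlapping ranges. Slc25a10, the dicarboxylate carrier, was 7.13, 7.88 and 7.09 FPKM and 18.7, 25.2 and 7.66 FPKM (log2 change 0.98, SE 0.39, limma adjusted p = 0.50). The high libraries were again Atf4AKO 1 and 2, and Atf4AKO 3 lay among the controls. Slc25a20, the carnitine carrier, was 173 ± 77.1 and 139 ± 19.8 FPKM (SD, n = 3 each).

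Adenylate kinases, which also balance ATP, ADP and AMP, had 5 positive and 1 negative change among 6, with a median of 0.06. Ak1, the cytosolic form abundant in muscle, was 3.10, 9.03 and 3.33 FPKM in the Atf4WT libraries against 16.7, 40.1 and 3.66 FPKM in the Atf4AKO libraries, high in the muscle-rich libraries. Ak3 was 30.2 ± 6.81 and 36.9 ± 7.38 FPKM, and Ak6 18.7 ± 3.63 and 15.7 ± 1.42 FPKM (SD, n = 3 each).

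Genes of phosphate and pyrophosphate handling near Alpl had 5 positive changes and 1 negative among 6, with a median of 0.22. The other alkaline phosphatase genes were too low to test. Nt5e, which frees phosphate from AMP, was 1.28 ± 0.254 and 2.27 ± 0.856 FPKM, Enpp1, which makes the pyrophosphate that ALPL splits, 0.859 ± 0.384 and 1.44 ± 0.749 FPKM, and the phosphate transporter gene Slc20a2 15.3 ± 1.48 and 18.1 ± 2.23 FPKM (SD, n = 3 each).

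The list of other guanidino and related transporters and regulators also held the kinase gene Ckm, and 5 of its genes were tested. Ckm, whose levels are given above, had the largest change of them (log2 change 3.43, SE 2.88, limma adjusted p = 0.620). Slc6a13, a relative of the creatine transporter that carries GABA, was 0.658, 0.528 and 0.618 FPKM in the controls and 1.11, 2.56 and 0.974 FPKM in the knockouts, with every knockout library higher (log2 change 0.62, SE 0.24, limma adjusted p = 0.50). Azin1, an inhibitor of antizyme, was lower in every knockout library, at 18.6 ± 2.10 and 16.2 ± 0.422 FPKM (SD, n = 3 each; limma adjusted p = 0.556).

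Calcium cycling, the other futile cycle described in beige fat, had 4 positive and 4 negative changes among 8, with a median of -0.03. Its most variable genes were those of muscle: Atp2a1, the calcium pump of fast muscle, was 1.04, 55.9 and 0.473 FPKM in the Atf4WT libraries against 190, 551 and 0.0610 FPKM in the Atf4AKO libraries. Casq1 and Ryr1, for calcium storage and release in skeletal muscle, were highest in the same 2 libraries, Casq1 at 31.3 and 90.2 FPKM and Ryr1 at 4.90 and 16.9 FPKM in Atf4AKO 1 and 2. Itpr1, a calcium release channel of many cells, was lower in every knockout library, at 5.25 ± 0.581 and 3.73 ± 0.503 FPKM (SD, n = 3 each; log2 change -0.40, SE 0.13, limma adjusted p = 0.50), and was named after its values were seen.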

How the data were processed

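The deposited table holds FPKM per gene symbol and library, computed by the authors. Per the labels' protocols the RNA was extracted with TRIzol and made into stranded mRNA libraries, and per the submitters' processing notes the build was mm10. The sources used here name no aligner, quantifier or annotation. Such values depend on transcript length, on how shared reads were assigned and on each library's total, so abundant transcripts lower all others. It does not give read depth, so no counting interval is stated. The sample descriptions tied columns to samples, and groups and replicate numbers came from the titles.

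Values were analysed as log2(FPKM + 1), which understates changes of low genes. Genes averaging 0.5 FPKM or more over the 6 libraries were fitted with limma 3.58.1 in R 4.3.3 (eBayes with trend, no covariate), adjusted by Benjamini-Hochberg over 12818 genes. SE is the moderated standard error. Tested on simulated data for Atf4AKO against Atf4WT, of 12818 genes with 200 changed in each of 5 runs, the fit found 58.4% of 2-fold, 80.8% of 4-fold, 90.8% of 8-fold and 93.6% of 16-fold changes, with 10.6 false calls a run. The simulated folds were of FPKM + 1 and not of FPKM. The adjusted threshold also depends on how many genes differ, which is unknown for the real libraries. The simulated noise was independent between genes, whereas many genes of the real libraries vary together with tissue makeup. These rates may therefore not hold here, and a gene that was not called may still differ. Atf4 itself was not called. Positions are from GENCODE M21 (GRCm38, the same assembly as mm10).

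The members, lists, tests and alternatives were chosen with earlier results of these data known. Genes named are the members, Atf4, Ckm, Ucp1, the 3 genes of largest absolute change in each related list, the 3 genes most like each member (predicted genes left out, and 2 genes not reported here), and the summed markers. GC, CCAAT and TATA boxes were added after the sequences were seen.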

Additional observations from a re-analysis of the deposited data

How the results depend on the processing

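The log2 changes of the 7 members and the counts of genes called, over all genes and in the related lists, were recomputed under 14 alternatives, and the other values were not. The log2 change of Gamt was positive in 14 of 14, from 1.12 to 1.65, the highest with a pseudocount of 0.1. With the 3 libraries high in skeletal muscle markers left out, which leaves Atf4AKO 3 as a lone knockout library, that of Slc6a8 was 0.39, that of Alpl 0.053 and that of Ckmt2 0, and the count of genes called higher was 0. Leaving out 1 library gave ranges of 1.17 to 1.51 for Gamt, -0.05 to 0.51 for Gatm, 0.00 to 0.24 for Slc6a8, -0.17 to 0.06 for Ckb, -0.45 to 0.10 for Ckmt1, 1.06 to 3.19 for Ckmt2 and -0.50 to -0.04 for Alpl. The count of genes called higher over all genes, 2, became 1 with either covariate and 0 to 3 without 1 library (0 without Atf4AKO 1, 1 without Atf4WT 1 or Atf4WT 2, 3 without Atf4WT 3). That of genes called lower, 0, became 2 without Atf4WT 2. No gene of the related lists was called under any of the 14. The replicate block left the members' log2 changes as they were and took the count of genes called higher from 2 to 0. It raised the genes with an unadjusted limma p under 0.05 from 1276 to 1969. Deviations of same-numbered libraries correlated at 0.0818, 0.404 and 0.0691, the 0.404 of replicate 2 being the largest of all pairs. Atf4WT 1 correlated best with Atf4AKO 3 (0.187). With 3 libraries a group these values cannot decide whether same-numbered libraries were paired. The causes were not tested. With 3 libraries a group and unknown depth, small differences of the low genes Ckmt1 and Ckmt2 cannot be resolved.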
